A study of Mus musculus with 12 samples.

Results

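The matrix metalloproteinases (MMPs), the ADAMTS proteases and their tissue inhibitors (TIMPs) were followed in mammary tumors of mice fed a control diet or 1 of 2 ligands of the retinoid X receptor (RXR). The members were all protein-coding genes of the count table whose symbol is Mmp, Adamts or Timp followed by a number and at most 1 letter. This gave 45 of 54532 genes, with 22 Mmp, 19 Adamts and 4 Timp genes. Mmp1a, which the table lists as a polymorphic pseudogene, was left out by this rule and had 0 reads. The samples were 12 tumors of female MMTV-neu mice, with 4 tumors in each of the control diet, MSU-42011 and bexarotene groups, and each compound was given at 100 mg/kg of diet for 10 days. In all groups the mouse mammary tumor virus promoter drives unactivated Neu (Erbb2) in mammary tissue, and all diets carried the same vehicle. Poly(A) RNA of each tumor was sequenced, and no label ties tumors of different groups to 1 litter or day. The study describes 4 mice in each group. The p-values set differences between group means against the spread between tumors of the same group.

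MMPs are zinc-dependent proteases that cut collagens, other matrix proteins and many secreted or surface proteins. ADAMTS proteases also depend on zinc but carry thrombospondin repeats, and they cleave proteoglycans such as versican and aggrecan, process procollagens or act on fibrillin microfibrils. TIMPs bind the active site of these enzymes, and TIMP3 is the inhibitor with the broadest reach over ADAMTS proteases. In breast tumors many of these genes are made by fibroblasts, macrophages and endothelial cells around the tumor cells, while some membrane-type MMPs are made by epithelial cells.

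The total of counted reads ran from 16583413 to 25925027 over the tumors (median 19342536). A floor of 3 counts was worth 0.111 to 0.184 normalized CPM, which are read counts scaled to a common library size. Counts were scaled with edgeR's TMM method, and 15504 genes, 30 of the 45 members among them, passed its filter on low counts. Bexarotene replicate 1 stood apart from the other tumors, at −115 on the first principal component against −16.2 to 34.2. Summed markers of luminal epithelium (8 genes, 14660 to 36963 normalized CPM) were high in all tumors, with the lowest value in bexarotene replicate 1. Csn3 alone held most of this sum, with 11769 of the 14660 in that tumor. Epcam, Krt8, Krt18, Cdh1 and Elf5 were also lowest in that tumor. Krt19 was instead highest there (28.2 against at most 1.96), and Erbb2 (103) was above MSU-42011 replicate 4 (93.8). Summed fibroblast markers (10 genes) reached 10719 normalized CPM in that tumor and at most 841 in any other. Macrophage markers (9 genes) reached 2410 against at most 965, and endothelial markers (7 genes) 397 against at most 185. Skeletal muscle markers (6 genes) summed to 251 in bexarotene replicate 1, 126 in control replicate 1 and at most 4.17 in the other tumors. In bulk tumor RNA, more cells of a type and more RNA per cell cannot be told apart, and the part of these cells in the results that follow was not tested. Values without bexarotene replicate 1 are set beside the comparisons with bexarotene.

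Promoter sequences are shown for Adamts1 and Mmp13, which were kept by the filter on low counts and whose tumors did not overlap between a ligand and control. They come from a RefSeq table (GRCm38.p6), which holds a window from 250 bases before the start site to 50 bases from it on, for 31 of the 45 members. The window of Adamts1, a secreted protease of versican and aggrecan, lies at chr16:85803064-85803363 on the minus strand, and capitals mark its 3 GC boxes (GGGCGG, counted on either strand, as are all motifs here), which begin at positions −147, −76 and −25 from the start site.
Adamts1: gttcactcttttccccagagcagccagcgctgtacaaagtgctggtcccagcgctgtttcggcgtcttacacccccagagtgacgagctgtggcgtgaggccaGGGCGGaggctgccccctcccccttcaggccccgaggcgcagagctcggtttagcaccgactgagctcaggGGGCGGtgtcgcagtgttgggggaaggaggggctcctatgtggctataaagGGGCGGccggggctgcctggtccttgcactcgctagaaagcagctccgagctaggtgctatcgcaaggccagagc
The window of Mmp13, which encodes a collagenase that cuts fibrillar collagens, lies at chr9:7272264-7272563 on the plus strand, and capitals mark a TGANTCA motif, the form bound by AP-1 (Fos and Jun proteins), which begins at position −35 from the start site.
Mmp13: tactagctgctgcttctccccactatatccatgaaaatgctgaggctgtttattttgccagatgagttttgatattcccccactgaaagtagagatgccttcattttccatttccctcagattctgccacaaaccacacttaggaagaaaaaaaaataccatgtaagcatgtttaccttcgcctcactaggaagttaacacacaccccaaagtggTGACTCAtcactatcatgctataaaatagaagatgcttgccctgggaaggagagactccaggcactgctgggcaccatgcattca
Mmp13 is the first of 9 Mmp genes that lie together at chr9:7272514-7699585. Of these 9 promoters 6 held the AP-1 motif, against 0 of the other 22 members with a promoter. The motif with 12 bases on each side is shown for these 6 in capitals, because all the members that held the motif lie in the cluster. The promoters of Mmp8, Mmp12 and Mmp27 in the same cluster did not hold it.
Mmp13: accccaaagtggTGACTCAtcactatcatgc
Mmp3: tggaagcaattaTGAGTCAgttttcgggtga
Mmp10: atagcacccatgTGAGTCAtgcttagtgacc
Mmp1b: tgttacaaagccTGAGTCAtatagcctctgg
Mmp7: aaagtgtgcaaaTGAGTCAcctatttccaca
Mmp20: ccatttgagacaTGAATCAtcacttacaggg

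For each member 1 window was taken, that of the start site nearest the start of the gene, while the share of all covers every window of the RefSeq table. The sides were thus chosen differently, and whether the shares differ for that reason was not tested. TGANTCA was held by 19.4% of the 31 promoters of members and by 7.81% of 32851 promoters. GGGCGG was held by 17 of 31 promoters of members (54.8%), against 35.7% of all. The half-site of nuclear receptors AGGTCA was held by 2 of 31 (6.45%, Mmp10 and Mmp1b), against 16.3% of all, and the direct repeat of this half-site with 1 base of any kind between (DR1), a form bound by RXR dimers, by 0 of 31, against 0.0396% of all. Of the 9 genes of the cluster only Mmp13, Mmp12 and Mmp3 passed the filter on low counts, so 3 of the 6 promoters' genes listed above had 0 reads in all 12 tumors (Mmp1b, Mmp7 and Mmp20) and Mmp10 had 1 read in 1 tumor.

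Levels of different genes were compared in FPKM, which the authors normalized for gene length and library size. A pair of membrane-type MMPs led the MMPs. Mmp15 had 160 to 203 FPKM in control tumors, and Mmp16 had 20.8 to 30.7. In MSU-42011-treated tumors Mmp15 had 239, 121, 327 and 174 FPKM, and in bexarotene-treated tumors it had 118, 130, 230 and 204 FPKM, so the groups overlapped. Mmp15 and Mmp16 together held 69.1% to 93.4% of the summed FPKM of all MMPs in 11 tumors and 21.98% in bexarotene replicate 1.

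Among the inhibitors Timp2 was the most abundant, with a median of 30.3 FPKM in control tumors, against 3.49 for Timp3 and 3.22 for Timp1. TIMP2 also links MMP14 to the proform of MMP2, the step by which MMP2 is activated at the cell surface. Mmp14 had a control median of 15.6 FPKM and Mmp2, the gelatinase that cuts denatured and basement membrane collagen, of 6.21. Among the ADAMTS genes, Adamts10, which acts on fibrillin microfibrils, led with a control median of 16.03 FPKM, followed by Adamts7 with 13.4, a protease of cartilage oligomeric matrix protein. The median was 2.73 FPKM for Adamts2 and 2.28 for Adamts3, which trim procollagens. All other Adamts genes were below Adamts12, at 1.61 FPKM.

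**Figure D1:**
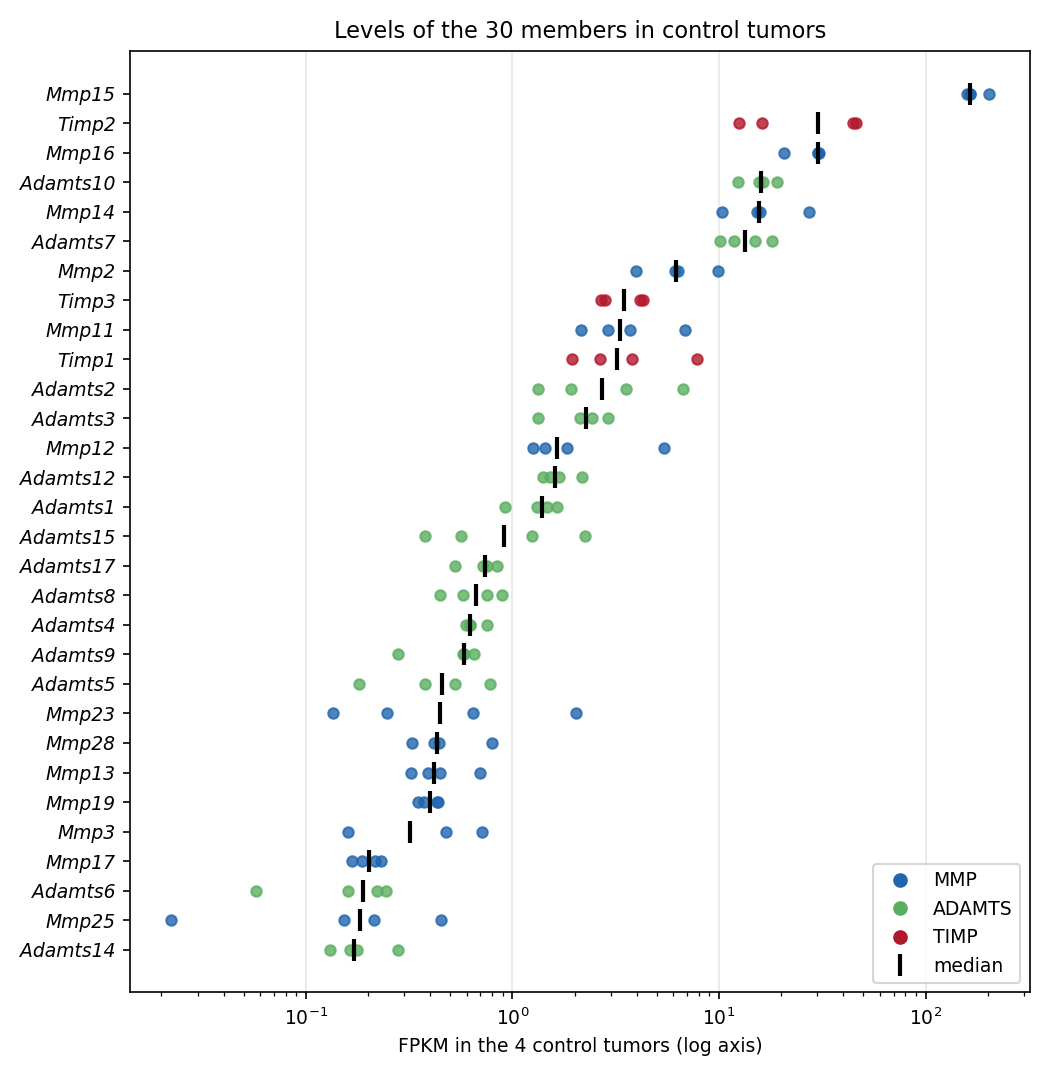
FPKM (log axis) of the 30 members that passed the filter on low counts, in the 4 control tumors, ordered by their median (black mark). A tumor listed at 0 has no point. Mmp15 stands highest, with a median of 164 FPKM, followed by Timp2 and Mmp16.

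The remaining 15 members were not kept by the filter on low counts. Mmp1b, Mmp7 and Mmp20, a collagenase, the matrilysin and the enamel protease, had 0 reads in each of the 12 tumors, which allows up to 0.111 to 0.184 normalized CPM in a tumor. Mmp10 had 1 read, Mmp21 5, Adamts19 6, Mmp24 11, Adamts18 22, Timp4 24, Mmp27 32, Adamts20 43, Mmp8 44 and Adamts13 67 reads over all tumors. Of the 44 reads of Mmp8, the collagenase of neutrophils, 21 came from control replicate 2, and summed neutrophil markers (10 genes) were between 1.66 and 11.1 normalized CPM. Of the 345 reads of Adamts16, 315 came from bexarotene replicate 1 (11.6 normalized CPM) and 18 from bexarotene replicate 2. Of the 390 reads of Mmp9, the other gelatinase, 309 came from bexarotene replicate 1 (11.4 normalized CPM) and 35 from bexarotene replicate 2. Of the 43 reads of Adamts20, 38 came from bexarotene replicate 1. Adamts16 had higher normalized CPM in all bexarotene-treated tumors than in all control tumors, but only through the scaling to library size. Bexarotene replicates 3 and 4 and control replicate 2 had 2 reads each (0.0969, 0.123 and 0.0947 normalized CPM), under the floor of 3 counts. The share of groups without overlap among genes not kept by the filter is not given. Adamts13, the protease of von Willebrand factor, had 7, 8, 6 and 13 reads in control tumors, 1, 0, 3 and 5 with MSU-42011 and 10, 4, 7 and 3 with bexarotene, so its MSU-42011-treated tumors all lay below its control tumors. The members with few reads thus had most of them in the same tumor for Adamts16, Mmp9 and Adamts20.

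The question of the design is whether either ligand changed expression relative to control diet, and whether the ligands differ. With edgeR's quasi-likelihood F test and Benjamini-Hochberg adjustment over all 15504 genes, 0 of 30 members and 0% of all genes passed an adjusted p of 0.05 among the 3 groups. The same count of 0 members and 0% of genes was found in each comparison of a pair of groups. At an unadjusted p under 0.05, 11 of 30 members differed among the 3 groups, against 4.24% of all genes, and these were Adamts1, Adamts5, Adamts6, Adamts8, Adamts10, Adamts15, Mmp2, Mmp3, Mmp19, Mmp23 and Timp1. Without bexarotene replicate 1 the count was 3, Adamts1, Adamts8 and Mmp13, against 2.46% of all genes. DESeq2, which the study used, called Adamts8 and Mmp9 among the 3 groups (2 of 29 members with an adjusted p, against 0.0296% of genes). Both calls were lost without bexarotene replicate 1, where DESeq2's Benjamini-Hochberg adjusted p was 0.486 for Adamts8 and 1 for Mmp9.

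In the comparison of bexarotene with control, 14 members were higher at an unadjusted p under 0.05 (background 4.48% of genes), and 0 were lower (background 1.96%). Without bexarotene replicate 1, 2 members were higher (Adamts8 and Adamts10, background 1.60%) and 1 was lower (Mmp13, background 1.75%). The median log2 fold change of the 30 members was 1.202, against 0.030 for all genes, and it was 0.15 without that tumor. Of the 25 members with a higher mean in bexarotene, 18 kept this direction without bexarotene replicate 1, as did 4 of the 5 members with a lower mean. That tumor held the highest value of the 12 for 24 of the 30 members (80.0%), against 19.1% of all genes.

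**Figure D2:**
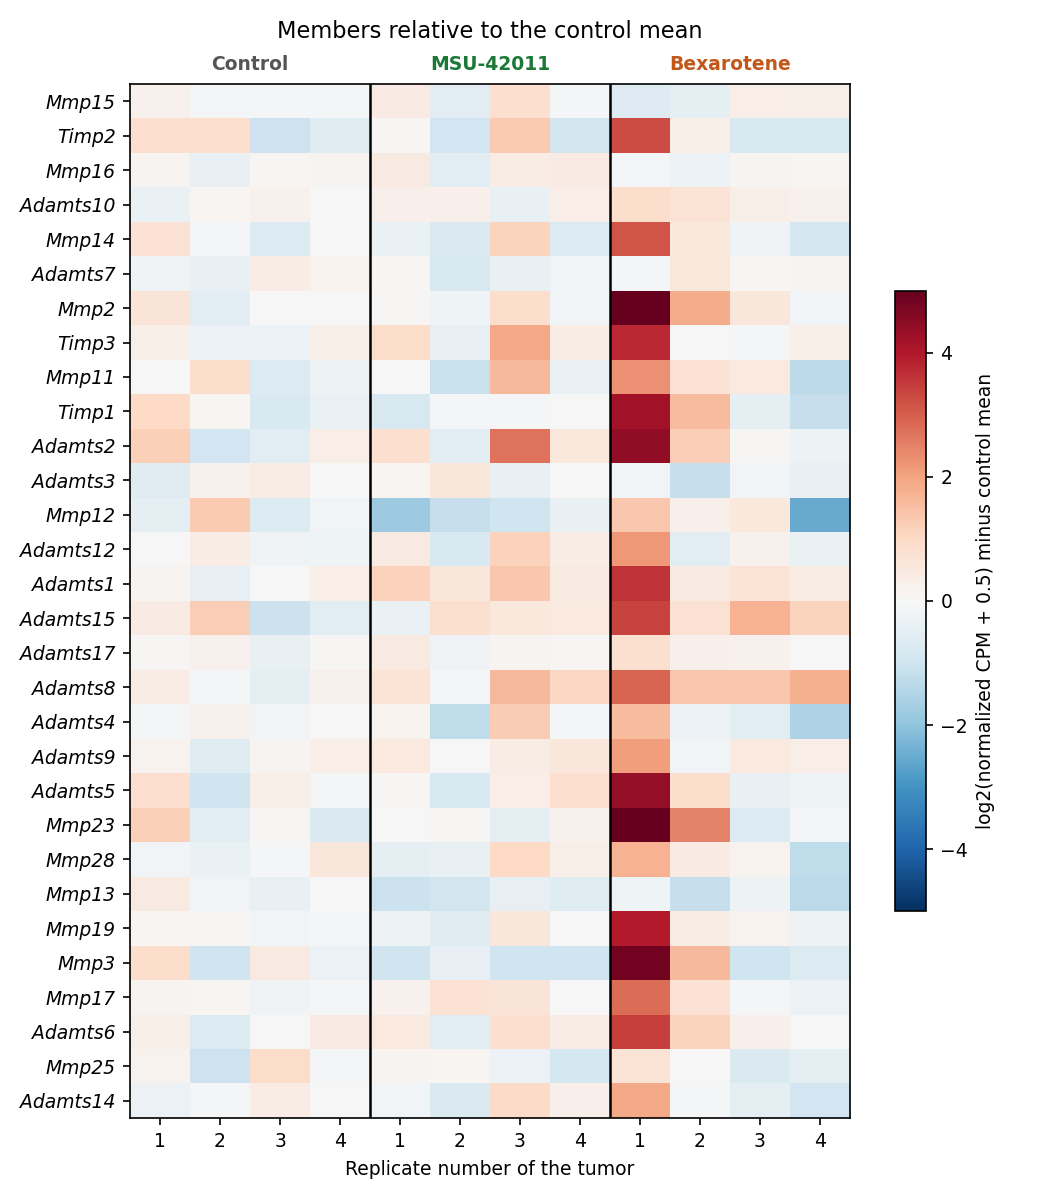
Difference of each tumor from the mean of the control tumors in log2(normalized CPM + 0.5), for 30 members (rows, ordered by control FPKM) in 12 tumors (columns), with colors cut at 5 in either direction. The column of bexarotene replicate 1 is the darkest, with a median over members of 2.54, while the other 11 tumors have medians between −0.48 and 0.61.

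Adamts8, a secreted protease with weak activity on aggrecan, lies at chr9:30942562-30963838 and was the member with the smallest p among the 3 groups (edgeR, unadjusted p = 0.0015, Benjamini-Hochberg adjusted p = 0.998). Normalized CPM were 3.26, 2.18, 1.60 and 2.84 in control tumors. They were 4.18, 2.30, 8.34 and 5.49 in MSU-42011-treated tumors and 21.1, 6.92, 6.93 and 9.38 in bexarotene-treated tumors. All bexarotene-treated tumors lay above all control tumors, while MSU-42011 replicate 2 lay among the control tumors. The log2 fold change with bexarotene was 2.17 ± 0.46 (SE; edgeR, Benjamini-Hochberg adjusted p = 0.762), and the exact two-sided permutation test gave p = 0.0286, the smallest this design allows. Groups of 4 that do not overlap always give this permutation p, so it adds nothing to the lack of overlap. Without bexarotene replicate 1 it was 1.64 ± 0.39, and the 3 tumors left lay above all control tumors. DESeq2 gave 2.15 with a Benjamini-Hochberg adjusted p of 0.00742, and this call was lost without control replicate 4 and without bexarotene replicate 1 (the largest adjusted p over the fits without 1 tumor was 0.229). The share of all genes called by DESeq2 in this comparison was 0.0356%. With MSU-42011 the log2 fold change was 1.04 ± 0.45 (edgeR, Benjamini-Hochberg adjusted p = 1.00). Between the ligands it was −1.13 ± 0.44, MSU-42011 minus bexarotene (adjusted p = 0.997), and −0.60 without bexarotene replicate 1. Reads of Adamts8 may include reads of the antisense gene Gm29724, which shares 489 exon bases with it and had 34 reads in all, as the strand setting of the counting is not given in the sources used here.

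Adamts15, which also cleaves versican, lies on the same chromosome at chr9:30899155-30922452. It had 4.57, 8.47, 1.34 and 2.11 normalized CPM in control tumors, 2.53, 6.12, 4.98 and 4.90 with MSU-42011 and 39.2, 5.96, 12.2 and 7.79 with bexarotene. The bexarotene-treated tumors overlapped the control tumors, since 8.47 in control replicate 2 was above 2 of them. The log2 fold change with bexarotene was 1.98 ± 0.66, and 1.07 ± 0.53 without bexarotene replicate 1.

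Adamts1 had 3.98, 2.56, 3.47 and 4.57 normalized CPM in control tumors. It had 8.58, 5.57, 9.91 and 5.11 with MSU-42011 and 49.8, 5.10, 6.05 and 4.78 with bexarotene. All tumors of either ligand lay above all control tumors, by a narrow margin for bexarotene replicate 4. The log2 fold change was 1.00 ± 0.69 with MSU-42011 and 2.18 ± 0.70 with bexarotene. Without bexarotene replicate 1 these were 1.00 ± 0.27 and 0.54 ± 0.29. The exact permutation test gave p = 0.0286 in each of the 2 comparisons with control, which follows from the lack of overlap. DESeq2 gave no p-value for Adamts1, Adamts2, Adamts5, Adamts20 and Mmp19 in any comparison of all 12 tumors, as its filter on outlying counts removed them. Adamts5, the main aggrecan protease of cartilage, lies on the same chromosome at chr16:85856173-85901828. It had 107.5 normalized CPM in bexarotene replicate 1 and 2.04 to 8.97 in the other 11 tumors, with groups that overlapped.

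Adamts10 had 38.9, 53.2, 58.3 and 50.5 normalized CPM in control tumors, 59.6, 58.8, 38.8 and 63.5 with MSU-42011 and 91.0, 80.7, 61.8 and 58.1 with bexarotene. Bexarotene replicate 4 lay just below the highest control tumor, and the others of its group lay above all controls. The log2 fold change with bexarotene was 0.54 ± 0.19, and 0.41 ± 0.19 without bexarotene replicate 1. For Adamts6, the close relative of Adamts10, normalized CPM were 13.6 in bexarotene replicate 1 and 0.284 to 2.29 in the other tumors.

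**Figure D3:**
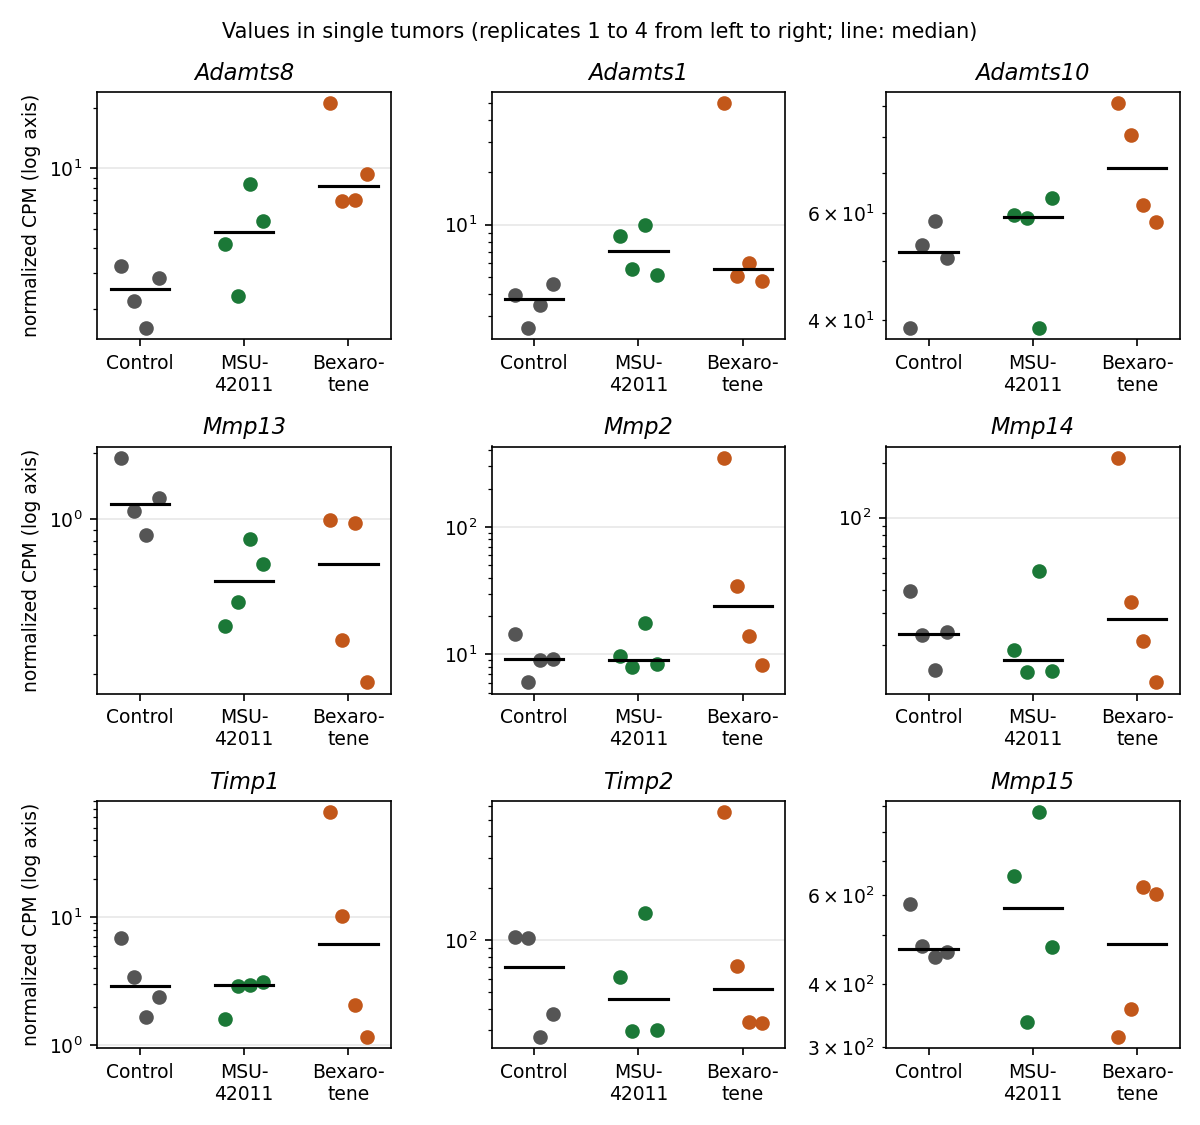
Normalized CPM (log axis, a scale for each gene) of 9 members in single tumors, with replicates 1 to 4 from left to right in each group and a line at the median. For Adamts8 the lowest bexarotene-treated tumor (6.92) lies above the highest control tumor (3.26), and for Mmp13 the highest MSU-42011-treated tumor (0.813) lies below the lowest control tumor (0.855).

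In the comparison of MSU-42011 with control, 1 of 30 members was higher (Adamts8, background 1.14% of genes) and 1 was lower (Mmp13, background 0.851%) at an unadjusted p under 0.05. DESeq2 called 0 members here, against 0.00338% of genes. Without bexarotene replicate 1, which is in neither group, edgeR gave 3 members higher (Adamts1, Adamts8 and Timp3) and 1 lower (Mmp13) at that threshold. The shares of all genes for this comparison without that tumor are not given. The log2 fold change of Timp3 with MSU-42011 was 0.95 ± 0.84, and 0.95 ± 0.40 without that tumor. Its MSU-42011-treated and control tumors overlapped. The groups did not overlap for 1 member with higher values (Adamts1, background 1.16%) and for 1 with lower values (Mmp13, background 0.806%). The median log2 fold change of the members was 0.17, against 0.0016 for all genes, with 20 members higher and 10 lower, and it was −0.15 without MSU-42011 replicate 3.

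Mmp13 had 1.90, 1.09, 0.855 and 1.25 normalized CPM in control tumors, from 32, 23, 16 and 29 reads. With MSU-42011 it had 0.330, 0.424, 0.813 and 0.629, from 6, 7, 15 and 15 reads. With bexarotene it had 0.996, 0.286, 0.969 and 0.184. The MSU-42011-treated tumors all lay below the control tumors, but the nearest pair, MSU-42011 replicate 3 and control replicate 3, had 15 and 16 reads. The log2 fold change with MSU-42011 was −1.20 ± 0.53 (exact permutation p = 0.0286; edgeR, Benjamini-Hochberg adjusted p = 1.00). This permutation p follows from the lack of overlap. With bexarotene it was −1.03 ± 0.52, and −1.37 ± 0.57 without bexarotene replicate 1. Mmp13 is therefore the member that was lower with bexarotene at an unadjusted p under 0.05 once that tumor was left out.

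Bexarotene against control gave no overlap for 2 members with higher values (Adamts1 and Adamts8, background 1.14%) and for 0 with lower values (background 0.890%). Between MSU-42011 and bexarotene, 0 of 30 members did not overlap in either direction (background 0.632% higher and 0.535% lower with MSU-42011). At an unadjusted p under 0.05, 0 members were higher with MSU-42011 than with bexarotene (background 0.819%) and 9 were lower (background 3.13%). The count of lower members was 2 without bexarotene replicate 1 (Adamts7 and Mmp3, background 1.47%). The median log2 fold change, MSU-42011 minus bexarotene, was −1.14, and it was 0.15 without bexarotene replicate 1. Both comparisons with control share the 4 control tumors, and both with bexarotene share its 4 tumors.

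The members with the largest fold changes between bexarotene and control had their high values in 1 or 2 tumors. Mmp2 had 350 and 34.4 normalized CPM in bexarotene replicates 1 and 2, 13.8 and 8.28 in replicates 3 and 4, and 6.01 to 17.6 in the other 8 tumors. Its log2 fold change was 3.40 ± 0.99, and 0.96 ± 0.45 without bexarotene replicate 1. Mmp23, a short MMP without the hemopexin domain, had 33.6 and 5.34 normalized CPM in replicates 1 and 2 and at most 1.90 in every other tumor (log2 fold change 3.82 ± 1.33, and 1.52 ± 1.02 without replicate 1). The gelatinase and this MMP thus showed the same 2 tumors above the rest.

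Mmp3, stromelysin-1, which cuts proteoglycans and activates other MMPs, had 27.4 and 2.53 normalized CPM in bexarotene replicates 1 and 2. It was at 0 reads in bexarotene replicate 3, in control replicate 2 and in MSU-42011 replicates 1, 3 and 4. Its log2 fold change was 3.64 ± 1.62 with bexarotene, and 0.57 ± 1.31 without bexarotene replicate 1. Mmp19 had 19.7 normalized CPM in bexarotene replicate 1 and 0.364 to 1.46 in the others, and Mmp17, an MMP held at the membrane by a lipid anchor, had 7.90 against 0.490 to 1.53. Mmp19 shares 789 exon bases with the antisense gene Tmem198b, which had 1264 reads against 718 of Mmp19. Reads of Mmp19 may therefore include reads of that gene. Adamts2 had 165 normalized CPM in bexarotene replicate 1, 49.8 in MSU-42011 replicate 3 and 3.41 to 17.1 in the other 10. MSU-42011 replicate 3 was thus the second highest tumor for this procollagen protease.

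Mmp9 had too few reads in most tumors to be kept by the filter. It had 14, 7, 5 and 2 reads in control tumors, 1, 3, 0 and 2 with MSU-42011, and 309, 35, 8 and 4 with bexarotene. The MSU-42011-treated tumors all lay below the bexarotene-treated tumors in normalized CPM (at most 0.182 against at least 0.245). DESeq2 called it lower with MSU-42011 than with bexarotene (log2 fold change −5.42, Benjamini-Hochberg adjusted p = 0.0152), in a comparison where it called 0.153% of genes. The call was lost without bexarotene replicate 1 and without MSU-42011 replicate 1, 3 or 4, and DESeq2 gave no p-value without bexarotene replicate 2. With edgeR and no filter the log2 fold change was −5.32 (Benjamini-Hochberg adjusted p = 0.584).

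Of the inhibitors, Timp1 had 65.9 and 10.3 normalized CPM in bexarotene replicates 1 and 2 and 1.16 to 6.88 in the other tumors. Its log2 fold change with bexarotene was 2.48 ± 1.00, and 0.35 ± 0.66 without bexarotene replicate 1. Timp3 had 115 normalized CPM in bexarotene replicate 1, 31.3 in MSU-42011 replicate 3 and 5.94 to 15.4 in the others. Its log2 fold change was 2.10 ± 0.85, and 0.06 ± 0.44 without that tumor. Timp3 lies inside Syn3 on the opposite strand and shares 1733 exon bases with it, and Syn3 had 327 reads against 5462 of Timp3. Timp2 had 551 normalized CPM in bexarotene replicate 1 and 27.5 to 143 in the other tumors.

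**Figure D4:**
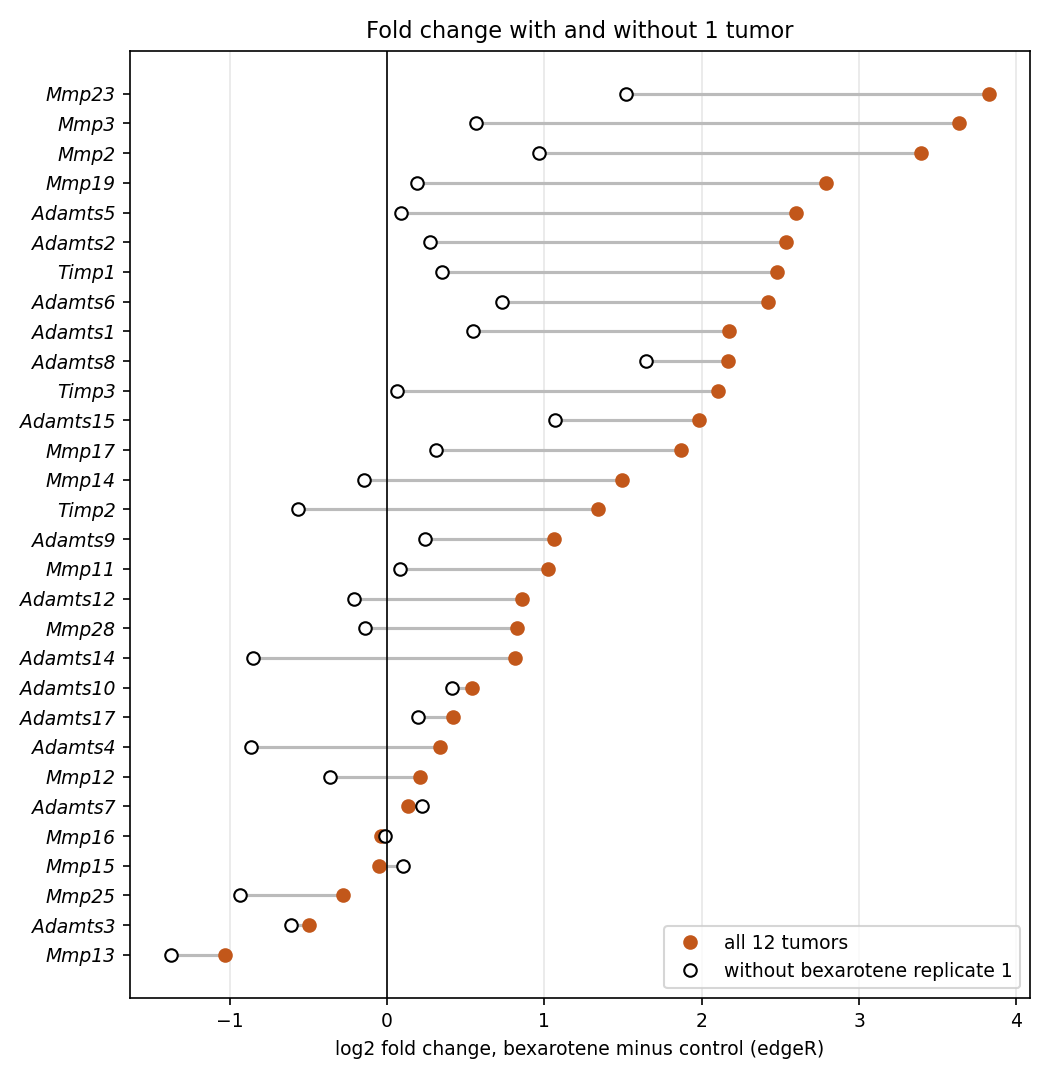
Log2 fold change (edgeR, bexarotene minus control) of 30 members with all 12 tumors (filled) and without bexarotene replicate 1 (open), joined by a line. The lines are short for Adamts8 (2.17 and 1.64) and Adamts10 (0.54 and 0.41), and long for Mmp2 (3.40 and 0.96) and Mmp19 (2.79 and 0.19).

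Summed over families, the MMPs other than Mmp15 and Mmp16 (20 genes) came to 518 FPKM in bexarotene replicate 1 and 16.3 to 68.3 in the other tumors. The ADAMTS genes came to 187 FPKM against 38.7 to 64.4, and the TIMPs to 393 against 17.4 to 85.5. The same tumor held the highest sum of each of the 3 families. In the tumors left, the sums of bexarotene, MSU-42011 and control tumors overlapped for every family.

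**Figure D5:**
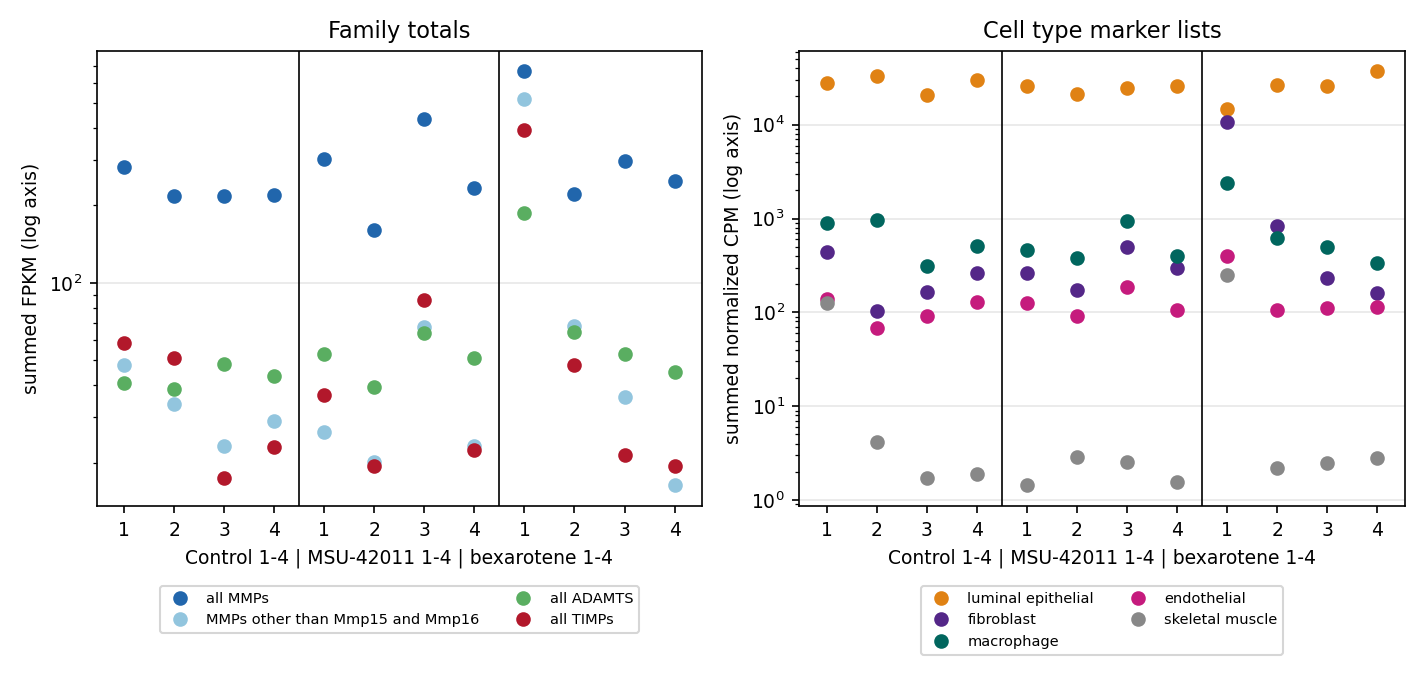
Summed FPKM of the families (left) and summed normalized CPM of cell type marker lists (right), on log axes, for the 12 tumors. Bexarotene replicate 1 is highest in all family sums and in the fibroblast (10719), macrophage (2410) and endothelial (397) lists. It is lowest in the luminal epithelial list (14660), most of which is Csn3.

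Among genes of the same pathway, from lists written from general knowledge, 0 passed edgeR's test with Benjamini-Hochberg adjustment in any list or comparison. Of 12 matrix substrates tested, such as collagens and fibronectin, 12 had a higher mean with bexarotene, 8 of them at an unadjusted p under 0.05 (background 4.48%), with a median log2 fold change of 2.38, and 0.54 without bexarotene replicate 1. Comp, the cartilage oligomeric matrix protein that ADAMTS7 and ADAMTS12 cleave, had a log2 fold change of 2.52 ± 0.57 with bexarotene, 2.68 without bexarotene replicate 1, and 1.51 ± 0.55 with MSU-42011. Of 12 regulators of MMPs, 5 were higher and 2 lower with bexarotene at an unadjusted p under 0.05 (background 4.48% and 1.96%), with a median of 0.50, and 0.18 without bexarotene replicate 1. Thbs2, a thrombospondin that binds MMP2, had a log2 fold change of 3.78 ± 1.22 with bexarotene, and 1.00 without that tumor. Of the 6 ADAMTS-like proteins tested, which lack a protease domain, 1 was higher with MSU-42011 at that threshold (background 1.14%). This was Adamtsl2 (log2 fold change 1.83 ± 0.60), and 2 were higher with bexarotene (background 4.48%). For the 7 AP-1 subunits, 0 passed an unadjusted p of 0.05 in either comparison with control, and their medians were −0.21 with MSU-42011 and 0.075 with bexarotene. Of 8 ADAM proteases 1, of 5 genes of plasminogen activation 2 and of 5 secreted cathepsins 1 were higher with bexarotene at that threshold. Without bexarotene replicate 1, 1 of the 12 matrix substrates was higher with bexarotene at that threshold (background 1.60%). There, 0 genes of the regulators, ADAMTS-like proteins, ADAM proteases, plasminogen activation and cathepsins were higher or lower with bexarotene.

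For fibroblast markers, 7 of 10 were higher with bexarotene at an unadjusted p under 0.05 (background 4.48% of genes), with a median log2 fold change of 3.67. Without bexarotene replicate 1 the median was 0.80, and 0 of 10 passed that threshold (background 1.60% higher and 1.75% lower). The medians were 0.82 for macrophage markers and 0.79 for endothelial markers, and −0.26 and 0.14 without that tumor. With MSU-42011 they were 0.024 for fibroblast, −0.13 for macrophage and 0.25 for endothelial markers. In that comparison 0 markers of these lists passed an unadjusted p of 0.05 (background 1.14% higher and 0.851% lower).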

How the data were processed

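Poly(A) RNA of 12 tumors was measured. The authors deposited raw read counts per gene, without normalization, and FPKM values. The submitters' processing notes name STAR 2.6.1d, featureCounts 1.5.0-p3 and DESeq2. The strand setting and genome build are not given in the sources used here, and 98.3% of genes have the positions of GENCODE M21 (GRCm38).

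Total counts per tumor ran from 16583413 to 25925027. Tumors were grouped by their labels. Counts were tested with edgeR 4.0.16 (R 4.3.3; TMM, filterByExpr, quasi-likelihood F test, a mean for each group, Benjamini-Hochberg adjustment, threshold 0.05), and checked on simulated data. Normalized CPM were compared by exact two-sided permutation tests (smallest p 0.0286, which groups that do not overlap always give), and errors of fold changes are SE. Alternatives were DESeq2 1.42.0, its size factors, 2 other filters, the replicate block and leaving out each tumor. Fold changes are given only for members with an unadjusted p under 0.05, a DESeq2 call or groups that did not overlap, and not in every comparison. Log2 fold changes of bexarotene against control not given above were 2.54 for Adamts2, 2.60 for Adamts5, 2.42 for Adamts6 and 1.87 for Mmp17. Without bexarotene replicate 1 these were 0.27, 0.09, 0.73 and 0.31. The members and lists were chosen with earlier results of these data known.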

Additional observations from a re-analysis of the deposited data

Results flagged for a closer look

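In groups of 4 tumors, a tumor far from the other 3 was looked for in the 30 members of each diet group by Dixon's gap, which is the distance of the highest or lowest tumor to its nearest neighbor divided by the range of the group. The gap was past the 95% critical value in 22 of 90 sets. Chance gives about 1 in 20 sets only where sets are independent and values normally distributed. These sets share the same tumors and include members with few reads, so the 22 cannot be set against that rate. The share of all genes past this value is not given. In 16 of the 22 the tumor was bexarotene replicate 1, as the highest. Its gap was 0.978 for Timp3, 0.972 for Adamts1, 0.97 for Mmp19, 0.947 for Adamts5, 0.93 for Adamts2, 0.927 for Timp2, 0.923 for Mmp2 and 0.908 for Mmp3. It was 0.89 for Mmp14, 0.884 for Adamts6, 0.874 for Adamts12, 0.866 for Adamts14, 0.86 for Mmp17, 0.859 for Timp1, 0.858 for Adamts9 and 0.845 for Mmp23.

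In the control group, replicate 2 was the highest for Mmp12 (gap 0.848) and the lowest for Mmp16 (0.84). In the MSU-42011 group, replicate 3 was the highest for Mmp14 (0.878), replicate 2 was the lowest for Mmp16 (0.889) and the highest for Mmp3 (1, with 4 reads against 0 in the others), and replicate 1 was the lowest for Timp1 (0.848).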

How the results depend on the processing

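Of the 23 named fold changes of comparisons with bexarotene, 21 were smaller without bexarotene replicate 1 by more than 1.5 times on the log2 scale. Of 435 values of the 27 named fold changes under an alternative, 1 turned in direction. These were named for a small p, a DESeq2 call or a lack of overlap, which favors a stable direction. Of all 30 members tested, 27 had a lower fold change with MSU-42011 than with bexarotene, and 12 kept this direction without bexarotene replicate 1. EdgeR's Benjamini-Hochberg adjusted p-values of the named fold changes were 0.584 or more in the reported fits of all 12 tumors. In fits without 1 tumor they went as low as 0.350 for bexarotene against control, for Adamts8 and Mmp2 among others. With values this far above the threshold, staying above it says nothing about stability. DESeq2 called Adamts8 (bexarotene against control, 2.15) and Mmp9 (MSU-42011 against bexarotene, −5.42), which edgeR did not. Adamts5 (MSU-42011 minus bexarotene) turned from −2.50 to 0.0100 without bexarotene replicate 1, with a range of −2.87 to 0.0100 over the fits without 1 tumor; the cause was not tested. By Benjamini-Hochberg adjusted p, DESeq2 called 2 members among the 3 groups, 1 for bexarotene and 1 between the ligands. In DESeq2 fits without 1 tumor, added after the data were seen, it called 0 to 8 among the 3 groups, 0 to 6 for bexarotene against control and 0 to 5 between the ligands. The shares of all genes in these fits are not given.

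Counts at an unadjusted p under 0.05 also moved. With at least 10 counts in every tumor, which tests fewer genes, they were 7 among the 3 groups, 1 for MSU-42011 against control and 5 between the ligands. Without a filter 15 differed between the ligands, and DESeq2 gave 4 for MSU-42011 against control. The shares of all genes under these settings, and in most fits without 1 tumor, are not given. Among the 3 groups the share of all genes was 4.24% with all tumors and 2.46% without bexarotene replicate 1. Whether the counts of members moved more than the shares of all genes was not tested. Without 1 tumor the counts ran from 3 (without bexarotene replicate 1) to 17 (without bexarotene replicate 4) among the 3 groups, from 0 to 4 between MSU-42011 and control, from 3 (without bexarotene replicate 1) to 18 for bexarotene against control and from 2 (without bexarotene replicate 1) to 15 (without bexarotene replicate 4) between the ligands. The median fold change of members was 0.15 for bexarotene against control and 0.15 between the ligands without bexarotene replicate 1, with ranges of 0.15 to 1.68 and −1.47 to 0.15 over the fits without 1 tumor.

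Members whose groups did not overlap numbered 1 with at least 10 counts in every tumor between MSU-42011 and control, 4 between bexarotene and control and 1 between the ligands without a filter. Without 1 tumor they ran from 2 to 7, from 2 to 5 and from 0 to 3. The shares of all genes under these settings are not given.

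Deviations of tumors with the same number from their group means correlated between −0.352 and 0.349, with 4 of 12 pairs over 0.1. With 4 tumors in a group this check cannot exclude a pairing, and no label gives one. With the replicate block, 2 members differed among the 3 groups, 1 between MSU-42011 and control, 7 between bexarotene and control and 3 between the ligands at an unadjusted p under 0.05, and 0 by adjusted p. The shares of all genes with the block are not given. Depth limits the 15 members with too few reads for the filter.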
